A study of Homo sapiens with 9 samples.

Results

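Here 38 human HOX genes are described across control cells and 2 SmcHD1 knock-downs. They were chosen by name from a list of protein-coding genes of the HOXA, HOXB, HOXC and HOXD clusters, with antisense transcripts left out, which gave 38 of 19479 named genes and 42 probes. The HOXA cluster on chromosome 7 holds 10 of them, HOXB on chromosome 17 holds 10, HOXC on chromosome 12 holds 9 and HOXD on chromosome 2 holds 9 (RefSeq). The genes are compared by cluster and by paralog group, the number in the gene name.

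HOX genes encode homeodomain transcription factors that give cells their position along the body axis. In each cluster the genes lie in the order in which they are used from head to tail, so that low numbers are anterior and high numbers posterior, and genes with the same number in different clusters are paralogs. The clusters are well-known targets of Polycomb repression and Trithorax activation, and they are patterned in the embryonic kidney as in other organs. SmcHD1 is a chromatin protein with an SMC hinge domain, known for its part in silencing the inactive X chromosome.

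Gene expression was measured in HEK293 cells, a line from human embryonic kidney with some neuronal features. Cells carried a retroviral vector (pQCXIP-GFP) expressing shRNA 3 against SmcHD1 (KD3), shRNA 4 against SmcHD1 (KD4) or the control shRNA NC5 (CTL), and were selected with puromycin. All 3 groups therefore share infection, the GFP vector and selection, and each is a stably infected population. The study calls its 3 arrays per group biological triplicates, and the sources do not say that they came from separate infections, so p-values measure the spread between these arrays. Because the RNA is from bulk cells, fewer cells using a gene and less RNA per cell cannot be told apart.

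The hairpin oligos are shown because they define the 3 groups. Each is 68 bases long and is written 5′ to 3′ in lower case, with the 9-base stretch common to all 3, the loop, in capitals.
CTL (NC5): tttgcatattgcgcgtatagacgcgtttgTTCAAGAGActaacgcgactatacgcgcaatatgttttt
KD3 (shRNA 3): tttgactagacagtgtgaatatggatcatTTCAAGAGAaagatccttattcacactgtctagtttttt
KD4 (shRNA 4): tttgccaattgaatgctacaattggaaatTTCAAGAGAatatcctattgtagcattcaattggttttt

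The targeted gene, SMCHD1, was lower in both knock-downs. Its log2 normalized signal (the brightest of 3 probes) was 11.20, 11.37 and 11.22 on the CTL arrays, 10.40, 10.16 and 10.32 on the KD3 arrays and 9.63, 9.80 and 9.77 on the KD4 arrays, in the order of replicates 1 to 3. No knock-down array reached the level of a CTL array. The log2 difference from CTL in limma was -0.97 ± 0.09 (SE) in KD3, adjusted p = 0.000214, and -1.53 ± 0.09 (SE) in KD4, adjusted p = 1.81e-05. KD4 was lower than KD3 by a further log2 difference of -0.56 (limma adjusted p = 0.0195). In an exact two-sided permutation test of the 6 knock-down arrays against the 3 CTL arrays, p was 0.0119, the smallest value that 84 regroupings allow.

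The 9 arrays were similar to each other: 75.1% to 79.8% of probes were well above background, no spot was saturated and the lowest correlation between replicates was 0.9946. Of the 9 embryonic kidney markers, 8 (PAX2 and WT1 among them) were well above background on all 9 arrays. The adrenergic markers PHOX2A and DBH, the blood gene HBB and the endothelial gene PECAM1 were on none. The summed linear signal of the kidney list was 19256 to 20024 on the CTL arrays, 14766 to 15497 on the KD3 arrays and 15854 to 16452 on the KD4 arrays, and of its 9 markers 1 was higher and 2 lower in KD3 and 1 higher and 3 lower in KD4 (limma adjusted p under 0.05). The neuronal and adrenal list, with 4 of 6 markers on all 9 arrays, also had lower sums, at 7682 to 8715 in CTL, 6193 to 6693 in KD3 and 6076 to 6540 in KD4, with 3 of 4 tested markers lower in each. The endothelial sums were lower too (190.5 to 199.2 in CTL, 153.3 to 181.3 in KD3, 169.1 to 186.7 in KD4), with 1 of 2 tested markers lower in each. The epithelial sums were higher in KD4 (18779 to 22310 in CTL, 18489 to 20904 in KD3, 24327 to 25489 in KD4), while 2 of its 5 markers were higher and 2 lower there, and 2 were lower in KD3. The fibroblast and muscle list was 1991 to 2246 in CTL, 1640 to 1761 in KD3 and 1843 to 2016 in KD4, with 3 of 5 tested markers lower in KD3 and 1 in KD4, and the blood and immune list overlapped between all groups (411 to 480 in CTL, 451 to 476 in KD3, 454 to 515 in KD4), with none of 4 tested markers called. For these counts of a few markers each, the shares of all 16078 named genes tested were 10.4% higher and 14.8% lower in KD3. In KD4 they were 14.7% and 19.8%. The part that differences in the marker lists have in the HOX values was not tested.

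More HOX genes rose than fell in both knock-downs, with the highest counts in the HOXB and HOXA clusters. Signal was high enough to test 34 of the 38 genes, 33 of them well above background on all 9 arrays, and HOXB1, HOXC11, HOXC12 and HOXD12 were not tested. Of the 34, 16 (47.1%) were higher in KD3 and 2 (5.88%) were lower at an adjusted p under 0.05 in limma. Among all 16078 named genes tested, 10.4% were higher and 14.8% lower. In KD4, 21 HOX genes (61.8%) were higher and 2 (5.88%) lower, against 14.7% and 19.8% of all genes. The HOX share was thus above the background for higher genes and below it for lower genes in both knock-downs. The methods' unequal-variance test, adjusted in the same way, called far fewer: HOXB4 and HOXB6 were higher in KD3 and 8 genes in KD4, none was lower, and among all genes 0.877% were higher and 1.46% lower in KD3 and 3.3% and 5.26% in KD4.

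At a fold of at least 1.8, the size used in the study's methods, 4 HOX genes (11.8%) were higher in KD3, where 1.29% of all genes were, and 5 (14.7%) were higher in KD4, where 1.46% of all genes were. None was lower by that much in KD3 or KD4 (the lowest log2 differences in limma were -0.44 and -0.62, both of HOXD8), while 3.13% and 4.12% of all genes were. The genes past 1.8-fold in both knock-downs were HOXA13, HOXB4, HOXB5 and HOXB8, and HOXA3 was past it in KD4. The median log2 difference in KD3 was 0.31 for the 34 genes and -0.01 for all genes, and in KD4 it was 0.39 and 0.00. KD3 and KD4 share the same 3 CTL arrays, so the 2 comparisons are not independent.

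Without any threshold on size, all 6 knock-down arrays lay above all 3 CTL arrays for 22 HOX genes (64.7%), where 14.5% of all genes did so. All 6 lay below for 2 (5.88%), HOXA7 and HOXD8, where 18.8% of all genes did so. The groups overlapped for the other 10. The arrays lay on 2 slides, the first with 1 KD3, 2 KD4 and 2 CTL arrays and the second with 2, 1 and 1, so a difference within a slide rests on a single array in at least 1 group for all but KD4 on the first slide. The median SD between the 3 arrays of a group was 0.075 on the log2 scale, and it was higher in CTL (0.13) than in KD3 (0.07) or KD4 (0.06).

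**Figure D1:**
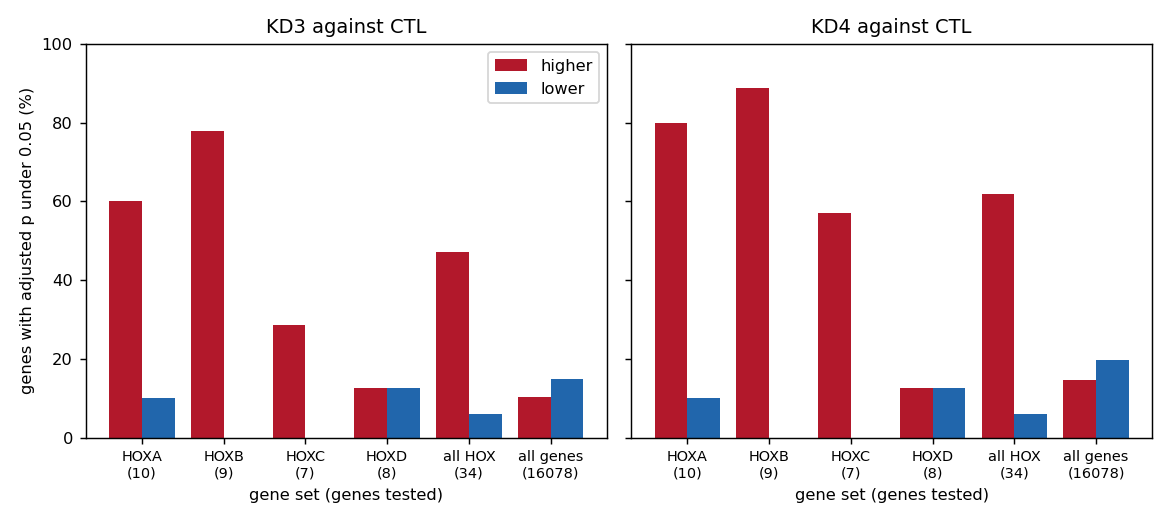
Percent of tested genes with an adjusted p under 0.05 in limma that were higher (red) or lower (blue) than CTL, by HOX cluster, over all HOX genes and over all named genes; the number tested is under each set. HOXB had the largest share of higher genes, 7 of 9 in KD3 and 8 of 9 in KD4, and HOXD the smallest, 1 of 8 in each.

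The number of genes that rose varied by cluster. In HOXB 7 of 9 genes tested were higher in KD3 and 8 in KD4, and none was lower. In HOXA 6 of 10 were higher in KD3 and 8 in KD4, and 1 was lower. In HOXC 2 of 7 were higher in KD3 and 4 in KD4, and in HOXD 1 of 8 was higher and 1 lower in each. The median log2 difference in KD3 was 0.71 in HOXB, 0.49 in HOXA, 0.23 in HOXC and 0.01 in HOXD. In KD4 the medians were 0.63, 0.50, 0.35 and 0.08 in the same order. These are descriptions of 4 sets of neighbouring genes, and the differences between clusters were not tested.

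**Figure D2:**
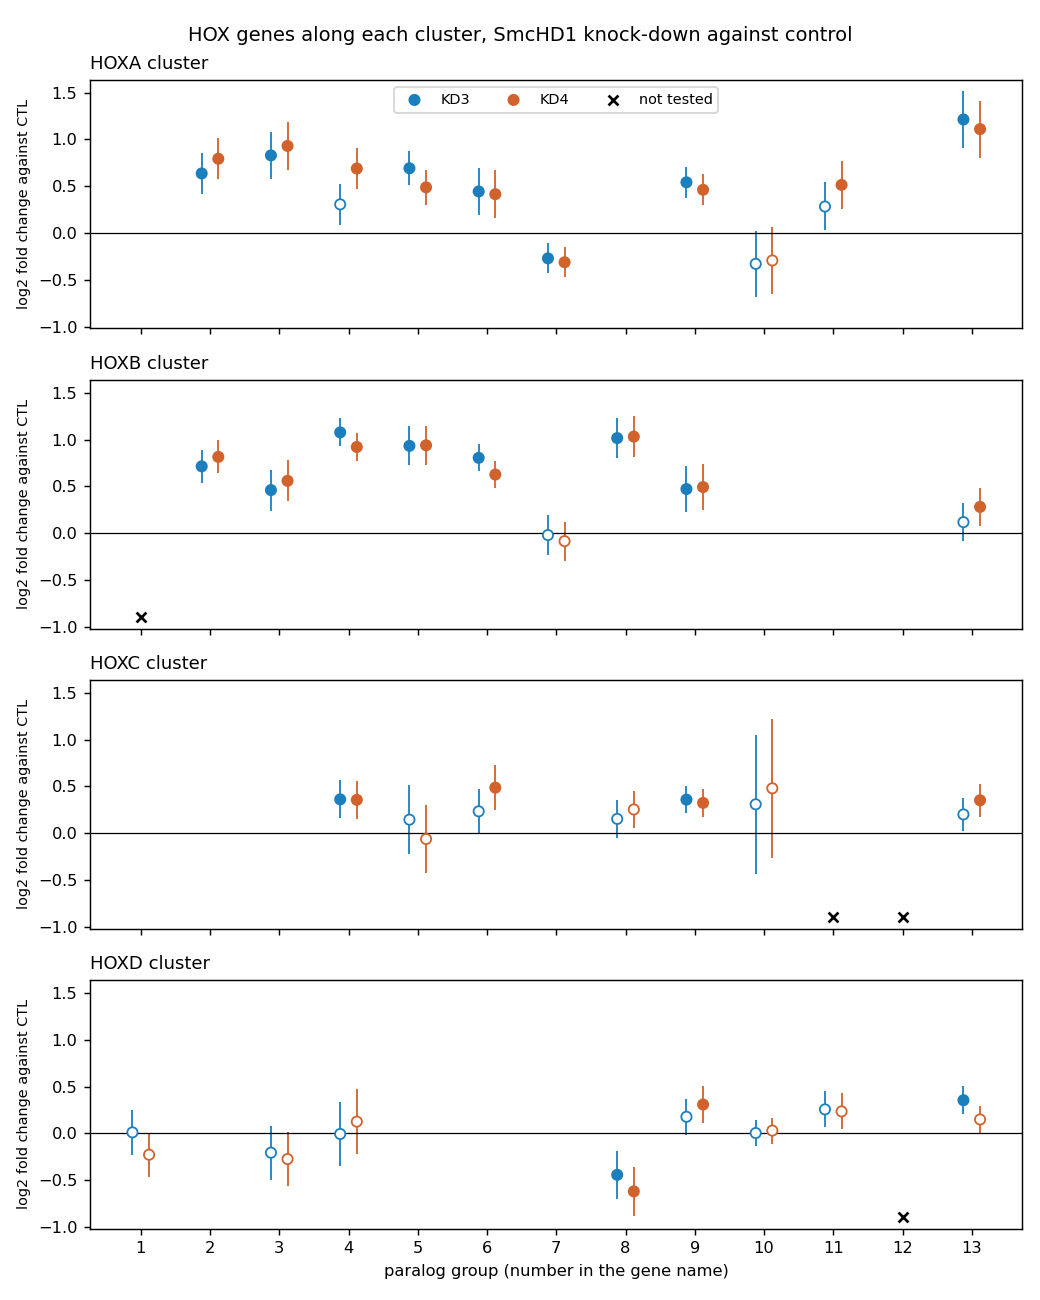
Log2 fold change against CTL of each HOX gene by paralog group, in 1 panel per cluster, for KD3 (blue) and KD4 (orange). Bars are 95% confidence intervals from limma (3 arrays per group), filled points have an adjusted p under 0.05 and crosses mark genes not tested; HOXA13, HOXB4 and HOXB8 lie near 1, and HOXA7 and HOXD8 lie below 0 with filled points for both knock-downs.

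Before the values of single genes, promoter sequences are shown for 2 genes that rose, HOXA13 and HOXA2, and for the 2 that fell, HOXA7 and HOXD8. RefSeq promoter windows were found for 20 of the 38 genes. Those of HOXB2 to HOXB9, HOXB13, HOXC6, HOXC8 to HOXC13, HOXA5 and HOXD9 were not analysed here. Each run is the 250 bases before the annotated start in GRCh38.p14, 5′ to 3′ on the strand of the gene, in lower case. Capitals mark any match on either strand to TGATNNAT (a site shared by HOX and PBX proteins), TATAAA (the TATA box), CCAAT (the CCAAT box) or GGGCGG (the GC box), and adjoining matches run together.
HOXA13 (chr7:27200092-27200341, minus strand): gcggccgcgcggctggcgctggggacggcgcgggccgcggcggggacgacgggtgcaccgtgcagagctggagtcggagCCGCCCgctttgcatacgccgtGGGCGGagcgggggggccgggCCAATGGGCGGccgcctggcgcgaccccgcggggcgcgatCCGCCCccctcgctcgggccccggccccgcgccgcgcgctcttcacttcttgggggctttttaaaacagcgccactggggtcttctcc
HOXA2 (chr7:27102684-27102933, minus strand): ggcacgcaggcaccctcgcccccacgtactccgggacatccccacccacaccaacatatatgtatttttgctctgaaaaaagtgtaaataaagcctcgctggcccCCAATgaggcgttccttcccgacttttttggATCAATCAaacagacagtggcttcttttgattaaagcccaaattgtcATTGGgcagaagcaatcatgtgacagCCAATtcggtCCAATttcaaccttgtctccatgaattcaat
HOXA7 (chr7:27156676-27156925, minus strand): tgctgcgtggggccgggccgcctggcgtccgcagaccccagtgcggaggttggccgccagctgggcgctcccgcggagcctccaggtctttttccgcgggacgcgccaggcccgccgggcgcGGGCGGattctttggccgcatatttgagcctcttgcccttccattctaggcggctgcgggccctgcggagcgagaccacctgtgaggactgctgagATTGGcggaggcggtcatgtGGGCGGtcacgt
HOXD8 (chr2:176129455-176129704, plus strand): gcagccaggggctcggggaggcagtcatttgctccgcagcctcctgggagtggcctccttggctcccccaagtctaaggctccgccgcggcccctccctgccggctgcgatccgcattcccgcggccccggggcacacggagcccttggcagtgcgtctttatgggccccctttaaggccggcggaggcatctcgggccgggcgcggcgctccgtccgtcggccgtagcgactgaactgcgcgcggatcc

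The windows of the genes that rose differed. The HOXA13 window held 40 CpG dinucleotides, 4 GC boxes and 1 CCAAT box, while that of HOXA2 held 8 CpGs, no GC box, 4 CCAAT boxes and 1 HOX and PBX match. The 2 genes that fell had 28 CpGs each, HOXA7 with 2 GC boxes and 1 CCAAT box and HOXD8 with none of the 4 motifs. Over 26 distinct HOX windows the median was 19.5 CpGs (0 to 40), and over all 35114 windows it was 11 (0 to 67). The 26 windows came from 20 genes, with several from HOXA3, so HOX figures are per window and not per gene. CCAAT was in 65.4% of HOX windows and 32% of all, GGGCGG in 50% and 42.6%, TATAAA in 19.2% and 10.7% and TGATNNAT in 11.5% and 6.47%. A match is a match of letters and says nothing about binding.

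In the anterior HOXA genes, HOXA3 and HOXA2 rose in both knock-downs. HOXA3, which is needed for thymus and parathyroid development, had a log2 signal of 10.37, 10.80 and 10.46 on the CTL arrays, 11.41, 11.29 and 11.41 on the KD3 arrays and 11.49, 11.43 and 11.50 on the KD4 arrays. The lowest knock-down array was 0.49 above the highest CTL array. The log2 difference in limma was 0.83 ± 0.11 (SE) in KD3, adjusted p = 0.00143, and 0.93 ± 0.11 (SE) in KD4, adjusted p = 0.000616. As a fold it was 1.78-fold in KD3, just under the 1.8 threshold, and 1.91-fold in KD4. Within the slides it was 0.66 for KD3 and 0.84 for KD4 on the first slide, and 1.05 and 1.12 on the second.

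HOXA2, the gene that sets the identity of the second branchial arch, read 8.04, 7.85 and 7.82 on the CTL arrays, 8.48, 8.60 and 8.54 on the KD3 arrays and 8.74, 8.54 and 8.82 on the KD4 arrays. Every knock-down array was above every CTL array. In limma the log2 difference was 0.64 ± 0.10 (SE) in KD3, adjusted p = 0.00248, and 0.79 ± 0.10 (SE) in KD4, adjusted p = 0.000655.

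Of the central HOXA genes, HOXA5 and HOXA6 rose in both knock-downs, HOXA4 in KD4, and HOXA7 fell in both. HOXA5, a regulator of lung development, read 11.49, 11.36 and 11.20 on the CTL arrays, 12, 12.07 and 12.06 on the KD3 arrays and 11.83, 11.83 and 11.85 on the KD4 arrays. The 6 knock-down arrays were all higher than CTL, and the KD3 arrays read above the KD4 arrays, a difference that did not pass (limma adjusted p = 0.213). The log2 difference in limma was 0.69 ± 0.08 (SE) in KD3, adjusted p = 0.000698, and 0.49 ± 0.08 (SE) in KD4, adjusted p = 0.00284. For HOXA4 the signal was 9.52, 9.71 and 9.55 on the CTL arrays, 10.08, 9.87 and 9.75 on the KD3 arrays and 10.35, 10.24 and 10.26 on the KD4 arrays. Both knock-downs lay above CTL, but only the KD4 difference passed in limma: it was 0.31 ± 0.10 (SE) in KD3, adjusted p = 0.0579, and 0.69 ± 0.10 (SE) in KD4, adjusted p = 0.00133. KD4 was above KD3 by 0.38, which did not pass (limma adjusted p = 0.0799). HOXA6 rose by 0.44 in KD3 (limma adjusted p = 0.0246) and 0.42 in KD4 (limma adjusted p = 0.0246). Both HOXA6 calls were lost in fits of only the 2 groups compared and without CTL replicate 1 or 3, the KD3 call also without any KD3 replicate and the KD4 call without KD4 replicate 2 or 3 (limma adjusted p up to 0.0822).

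HOXA7, whose promoter is given above, went the other way from its neighbours. It read 11.20, 11.21 and 11.07 on the CTL arrays, 10.96, 10.83 and 10.88 on the KD3 arrays and 10.81, 10.88 and 10.85 on the KD4 arrays, so each knock-down array was below each CTL array. The log2 difference in limma was -0.27 ± 0.07 (SE) in KD3, adjusted p = 0.0277, and -0.31 ± 0.07 (SE) in KD4, adjusted p = 0.0117. The KD3 call of HOXA7 was lost under 75th percentile scaling (limma adjusted p = 0.054), in a fit of only KD3 and CTL (limma adjusted p = 0.0791) and without KD3 replicate 2 or 3 or CTL replicate 1 or 2 (limma adjusted p up to 0.0957). Over all adjusted alternatives its p ran from 0.0252 to 0.115 in KD3 and from 0.0103 to 0.0794 in KD4, where the methods' test alone lost the call. Its paralog HOXB7 did not pass, with a log2 difference of -0.02 in KD3 (95% confidence interval -0.23 to 0.19) and -0.09 in KD4 (-0.30 to 0.12). Paralog group 7 was thus the only one tested in which no member was above CTL on average in either knock-down.

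In the posterior HOXA genes, HOXA13 showed the largest KD3 and KD4 differences of all 34. HOXA13, which patterns the digits and the urogenital tract, read 10.30, 10.67 and 10.09 on the CTL arrays, 11.66, 11.52 and 11.52 on the KD3 arrays and 11.50, 11.50 and 11.39 on the KD4 arrays. The CTL arrays varied more (SD 0.29, n = 3) than the KD3 arrays (0.08) or the KD4 arrays (0.06), and still did not overlap with them. The fold over CTL was 2.32 in KD3 and 2.16 in KD4. The log2 difference in limma was 1.21 ± 0.13 (SE) in KD3, adjusted p = 0.000508, and 1.11 ± 0.13 (SE) in KD4, adjusted p = 0.000635. Within the slides it was 1.14 for KD3 and 1.07 for KD4 on the first slide, and 1.29 and 1.2 on the second.

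HOXA9, a regulator of blood stem cells that is often overexpressed in acute leukaemia, read 12.45, 12.50 and 12.52 on the CTL arrays, 13.05, 13.11 and 12.94 on the KD3 arrays and 12.93, 12.90 and 13.02 on the KD4 arrays with its brighter probe. All knock-down arrays were above CTL. The log2 difference in limma was 0.54 ± 0.07 (SE) in KD3, adjusted p = 0.00136, and 0.46 ± 0.07 (SE) in KD4, adjusted p = 0.00212. A second, dimmer probe of HOXA9 did not pass, at 0.15 in KD3 (limma adjusted p = 0.204) and 0.12 in KD4 (limma adjusted p = 0.266). HOXA11, which patterns the limb and the kidney, rose in KD4 by 0.51 (limma adjusted p = 0.0103) and differed by 0.28 in KD3 (limma adjusted p = 0.116).

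The 2 probes of HOXA10, a gene of the uterus and lumbar axis, disagreed in sign. The brighter read 12.95, 13.30 and 12.86 on the CTL arrays, 12.69, 12.54 and 12.89 on the KD3 arrays and 12.62, 13 and 12.61 on the KD4 arrays, and its groups overlapped. Its log2 difference did not pass in limma, at -0.33 ± 0.16 (SE) in KD3, adjusted p = 0.18, and -0.29 ± 0.16 (SE) in KD4, adjusted p = 0.193. The other probe read 11.16, 11.09 and 10.96 in CTL, 11.45, 11.57 and 11.47 in KD3 and 11.76, 11.67 and 11.69 in KD4. It was higher by 0.43 in KD3 (limma adjusted p = 0.00534) and by 0.64 in KD4 (limma adjusted p = 0.000615), so no direction is given for HOXA10.

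**Figure D3:**
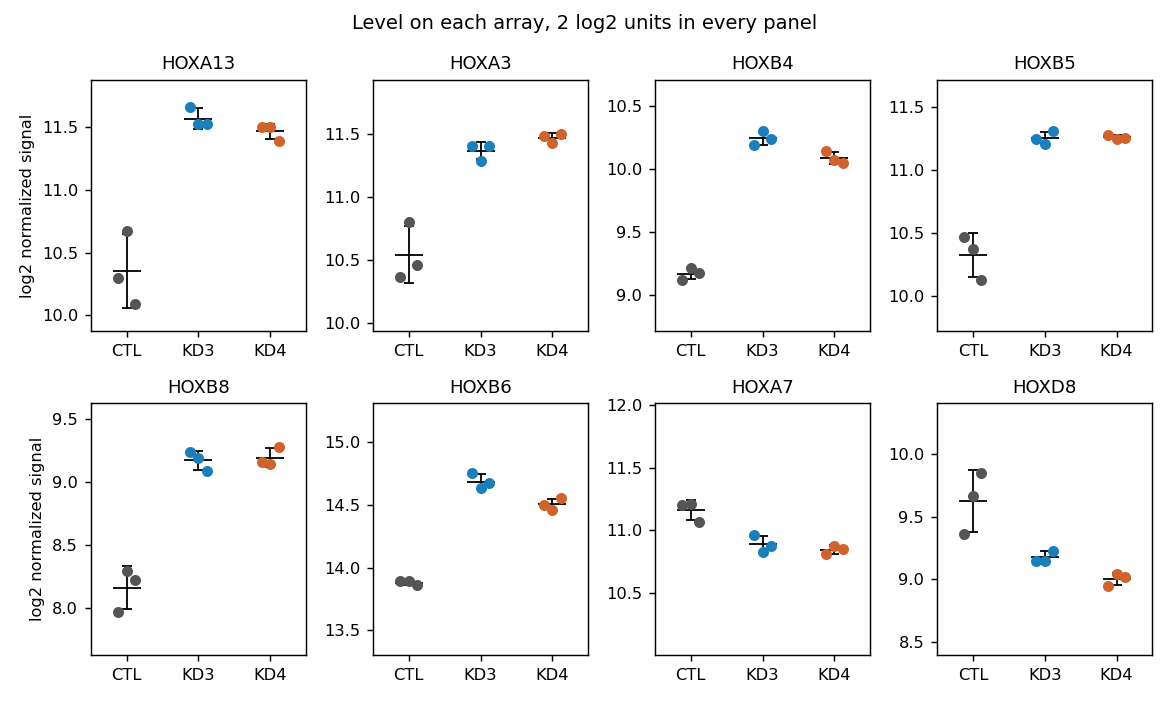
Log2 normalized signal of 8 HOX genes on each of the 9 arrays (points, replicates 1 to 3 from left to right), with the mean and SD of each group as bars; every panel spans 2 log2 units. The 6 knock-down arrays lie above the 3 CTL arrays for HOXA13, HOXA3, HOXB4, HOXB5, HOXB8 and HOXB6 and below them for HOXA7 and HOXD8.

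In the HOXB cluster, from HOXB2 to HOXB9 every gene but HOXB7 rose in both knock-downs. HOXB2 and HOXB3, which pattern the hindbrain segments, were the anterior members tested. HOXB2 read 13.34, 13.42 and 13.46 on the CTL arrays, 14.24, 14.10 and 14.03 on the KD3 arrays and 14.24, 14.16 and 14.27 on the KD4 arrays. Its log2 difference in limma was 0.71 ± 0.08 (SE) in KD3, adjusted p = 0.000482, and 0.82 ± 0.08 (SE) in KD4, adjusted p = 0.000194. A dimmer second probe of HOXB2 gave 0.18 in KD3 (limma adjusted p = 0.195) and 0.33 in KD4 (limma adjusted p = 0.0231). HOXB3 read 8.25, 8.63 and 8.51 on the CTL arrays, 8.87, 8.93 and 8.97 on the KD3 arrays and 9.05, 9.00 and 9.02 on the KD4 arrays. The knock-down arrays were again all above CTL, with a limma log2 difference of 0.46 ± 0.10 (SE) in KD3, adjusted p = 0.0112, and 0.56 ± 0.10 (SE) in KD4, adjusted p = 0.00341.

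The central HOXB genes held 3 of the 4 genes past 1.8-fold in both knock-downs. HOXB4, known for expanding blood stem cells, read 9.12, 9.21 and 9.17 on the CTL arrays, 10.19, 10.30 and 10.24 on the KD3 arrays and 10.14, 10.07 and 10.05 on the KD4 arrays. These were tight groups, with an SD of 0.04 in CTL, 0.06 in KD3 and 0.05 in KD4 (n = 3 each). The fold of HOXB4 over CTL was 2.11 in KD3 and 1.89 in KD4. The limma log2 difference was 1.08 ± 0.07 (SE) in KD3, adjusted p = 2.36e-05, and 0.92 ± 0.07 (SE) in KD4, adjusted p = 4.33e-05, the smallest adjusted p of any HOX gene in each comparison. Within the slides it was 1.11 for KD3 and 0.87 for KD4 on the first slide, and 1.1 and 1.02 on the second.

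HOXB5, a gene of the lung and the enteric nervous system, read 10.47, 10.37 and 10.13 on the CTL arrays, 11.25, 11.21 and 11.31 on the KD3 arrays and 11.28, 11.25 and 11.26 on the KD4 arrays. The 6 knock-down arrays spanned 11.21 to 11.31 and none overlapped with CTL. The fold over CTL was 1.91 in KD3 and 1.92 in KD4, with a limma log2 difference of 0.93 ± 0.09 (SE) in KD3, adjusted p = 0.000293, and 0.94 ± 0.09 (SE) in KD4, adjusted p = 0.000231. Within the slides it was 0.96 for KD3 and 1.01 for KD4 on the first slide, and 0.81 and 0.81 on the second.

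HOXB8, which can hold myeloid progenitors in a dividing state, read 7.97, 8.29 and 8.22 on the CTL arrays, 9.24, 9.19 and 9.09 on the KD3 arrays and 9.16, 9.14 and 9.28 on the KD4 arrays. The lowest knock-down array was 0.80 above the highest CTL array. The fold over CTL was 2.02 in KD3 and 2.05 in KD4, and the limma log2 difference was 1.02 ± 0.10 (SE) in KD3, adjusted p = 0.000231, and 1.03 ± 0.10 (SE) in KD4, adjusted p = 0.000169. Within the slides it was 0.94 for KD3 and 0.96 for KD4 on the first slide, and 1.19 and 1.19 on the second.

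HOXB6 lay between HOXB5 and HOXB7 on the chromosome and read 13.89, 13.89 and 13.86 on the CTL arrays, 14.75, 14.63 and 14.67 on the KD3 arrays and 14.50, 14.46 and 14.55 on the KD4 arrays. The CTL arrays differed by only 0.03. The fold over CTL was 1.75 in KD3 and 1.54 in KD4, short of 1.8-fold, with a limma log2 difference of 0.81 ± 0.06 (SE) in KD3, adjusted p = 0.000102, and 0.63 ± 0.06 (SE) in KD4, adjusted p = 0.000281.

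The posterior HOXB genes had smaller differences. HOXB9 read 13.42, 13.83 and 13.75 on the CTL arrays, 14.17, 14.19 and 14.06 on the KD3 arrays and 14.11, 14.17 and 14.19 on the KD4 arrays. The limma log2 difference was 0.47 ± 0.11 (SE) in KD3, adjusted p = 0.0156, and 0.49 ± 0.11 (SE) in KD4, adjusted p = 0.0096, and without KD3 replicate 2 the KD3 call was lost (limma adjusted p = 0.0549). HOXB13, a prostate gene, overlapped between the groups and rose in KD4 only by the test (0.28, limma adjusted p = 0.043), with 0.12 in KD3 (limma adjusted p = 0.402). The KD4 call of HOXB13 was lost under 7 of 10 alternatives and without any 1 of 7 arrays, all but KD3 replicate 1 and CTL replicate 2 (limma adjusted p up to 0.123). HOXB1 stood well above background on 0 of 9 arrays.

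**Figure D4:**
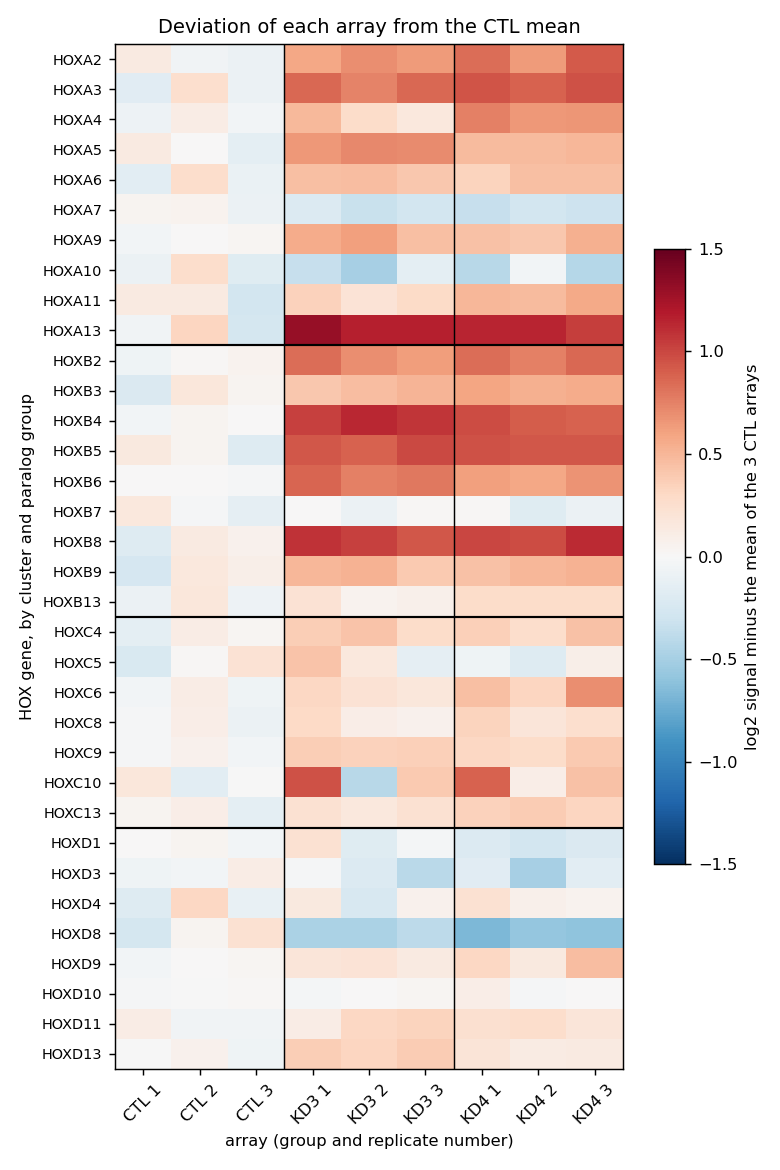
Log2 signal of each tested HOX gene on each array minus the mean of the 3 CTL arrays for that gene, with red above and blue below; black lines part the clusters and the groups. HOXB genes other than HOXB7 are red on all 6 knock-down arrays, HOXB13 only faintly, HOXA7 and HOXD8 are blue on all 6, and the other HOXD genes are mostly pale.

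In HOXC no log2 difference was above 0.49. HOXC9, which sets the identity of thoracic motor neurons, read 13.67, 13.75 and 13.65 on the CTL arrays, 14.06, 14.03 and 14.05 on the KD3 arrays and 14, 13.96 and 14.08 on the KD4 arrays. The groups did not overlap, and the limma log2 difference was 0.36 ± 0.06 (SE) in KD3, adjusted p = 0.00566, and 0.32 ± 0.06 (SE) in KD4, adjusted p = 0.00667. HOXC6 read 12.49, 12.65 and 12.47 on the CTL arrays, 12.85, 12.75 and 12.71 on the KD3 arrays and 12.99, 12.86 and 13.23 on the KD4 arrays, with a limma log2 difference of 0.23 ± 0.10 (SE) in KD3, adjusted p = 0.16, and 0.49 ± 0.10 (SE) in KD4, adjusted p = 0.00948. HOXC4 rose in both knock-downs, by 0.36 in KD3 (limma adjusted p = 0.022) and 0.36 in KD4 (limma adjusted p = 0.0177). The KD3 call of HOXC4 was lost in a fit of only KD3 and CTL and without KD3 replicate 1 or 2 or CTL replicate 1 or 3, and the KD4 call without KD4 replicate 1 or 3 (limma adjusted p up to 0.0763). HOXC13, a hair follicle gene, rose in KD4 (0.35, limma adjusted p = 0.0107), and its KD3 value was 0.20 (limma adjusted p = 0.108).

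HOXC5, HOXC8 and HOXC10 did not pass in either knock-down and overlapped with CTL. HOXC10 stood well above background on 2 CTL arrays, 2 KD3 arrays and all 3 KD4 arrays, and had the widest interval of the 34 (KD3 difference 0.31, 95% confidence interval -0.44 to 1.05). HOXC11 stood well above background on 0 of 9 arrays, and HOXC12 was so on 1 of 3 arrays in each group.

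HOXD held the second gene that fell, and most of its other genes did not pass. HOXD8 read 9.36, 9.66 and 9.85 on the CTL arrays, 9.15, 9.15 and 9.23 on the KD3 arrays and 8.95, 9.04 and 9.02 on the KD4 arrays. All knock-down arrays were below CTL, and the KD4 arrays read lower than the KD3 arrays, which did not pass (limma adjusted p = 0.432). The limma log2 difference was -0.44 ± 0.11 (SE) in KD3, adjusted p = 0.0267, and -0.62 ± 0.11 (SE) in KD4, adjusted p = 0.00468. The KD3 call was lost without any one of the 3 KD3 arrays, CTL replicate 2 or CTL replicate 3, with an adjusted p of up to 0.078, and in a fit of only KD3 and CTL (limma adjusted p = 0.0674). Within the slides the difference was -0.60 for KD3 and -0.73 for KD4 on the first slide, and -0.17 and -0.41 on the second.

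HOXD13, the gene of digit patterning mutated in synpolydactyly, read 12.01, 12.09 and 11.96 on the CTL arrays, 12.39, 12.34 and 12.40 on the KD3 arrays and 12.21, 12.14 and 12.15 on the KD4 arrays. The knock-downs lay above CTL, and KD3 read above KD4 without passing (limma adjusted p = 0.137). The limma log2 difference was 0.35 ± 0.07 (SE) in KD3, adjusted p = 0.00636, and 0.15 ± 0.07 (SE) in KD4, adjusted p = 0.126. HOXD9 rose in KD4 with its brighter probe (0.31, limma adjusted p = 0.0274) and gave 0.18 in KD3 (limma adjusted p = 0.189), while a dimmer probe gave -0.01 in KD3 and 0.02 in KD4. The KD4 call of HOXD9 was lost in a fit of only KD4 and CTL and without KD4 replicate 1 or 3 or any CTL replicate (limma adjusted p up to 0.0857).

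HOXD10, a gene of lumbar motor neurons, showed the least difference of all. It read 12.28, 12.29 and 12.31 on the CTL arrays, 12.26, 12.30 and 12.32 on the KD3 arrays and 12.39, 12.28 and 12.30 on the KD4 arrays. The limma log2 difference was 0.00 in KD3 (95% confidence interval -0.14 to 0.14) and 0.03 in KD4 (-0.11 to 0.17). HOXD11 did not pass (0.26 in KD3, limma adjusted p = 0.0661, and 0.23 in KD4, limma adjusted p = 0.0701). Its knock-down arrays count as all above CTL, but the gap was 0.00 when rounded. The highest CTL array and the lowest knock-down array both read 8.90. HOXD1, HOXD3 and HOXD4 overlapped with CTL and did not pass. HOXD12 was well above background on 1 KD4 array, replicate 2 at 4.47, and lay at 1.1 to 1.57 on the other 8.

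By position, the anterior genes (paralog groups 1 to 3, 6 tested) had a median log2 difference of 0.55 in KD3 and 0.68 in KD4. The central genes (groups 4 to 8, 15 tested) had 0.31 and 0.42, and the posterior genes (groups 9 to 13, 13 tested) 0.28 and 0.32. The central HOXB genes stood higher, at 0.93 and 0.92. In HOXD the order was the reverse, at -0.10 and -0.25 for anterior and 0.22 and 0.19 for posterior genes. HOXC has no gene in groups 1 to 3, so position is mixed with cluster. The differences by position were not tested. Both members of paralog group 2 rose in both knock-downs, and all 4 of group 9 rose in KD4. None of the 3 tested members of group 10 passed. Apart from the genes given with all 9 values by rule, 17 tested genes ranged from -0.33 to 0.44 in KD3 and from -0.31 to 0.51 in KD4. Annotated spans of some neighbours overlap (HOXB3 with HOXB4, HOXA3 with HOXA4 to HOXA6, HOXC4 with HOXC5 and HOXC6, HOXD3 with HOXD4), so a probe may read transcripts of both.

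Between KD4 and KD3, none of the 34 HOX genes passed in limma. At an adjusted p under 0.05, 3.25% of all genes differed between the 2 knock-downs in either direction, and 0.547% by at least 1.8-fold. At an unadjusted p under 0.05, limma gave 7 HOX genes (20.6%), where 21.7% of all genes passed, and the methods' unequal-variance test gave 8, where 19.1% of all genes passed, so these counts were near the background. The log2 difference KD4 minus KD3 ran from -0.24 (HOXD1) to 0.38 (HOXA4), with a median of 0.01. For 33 of 34 genes the 95% confidence interval of that difference lay within 1.8-fold in either direction, and for HOXC10 it reached 0.92.

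Genes next to the clusters moved both ways. Of 25 flanking genes tested, 7 (28%) were higher and 4 (16%) lower in KD3, against 10.4% and 14.8% of all genes. In KD4 7 (28%) were higher and 5 (20%) lower, against 14.7% and 19.8%. The median log2 difference was 0.01 in KD3 and 0.02 in KD4. Beyond the posterior end of HOXA, JAZF1, a zinc finger gene, rose. It read 8.76, 8.88 and 8.77 on the CTL arrays, 10.1, 9.77 and 9.87 on the KD3 arrays and 9.85, 9.91 and 9.82 on the KD4 arrays. The limma log2 difference was 1.11 ± 0.09 (SE) in KD3, adjusted p = 0.000134, and 1.06 ± 0.09 (SE) in KD4, adjusted p = 0.000139. EVX1, HIBADH and TAX1BP1, which lie between HOXA13 and JAZF1, were not higher than CTL on average. On the anterior side of HOXA, SKAP2 rose by 0.50 in KD3 (limma adjusted p = 0.0127) and 0.65 in KD4 (limma adjusted p = 0.00273). SNX10 on that side was lower, at -0.58 in KD3 (limma adjusted p = 0.022) and -0.55 in KD4 (limma adjusted p = 0.0209).

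Both sides of HOXB held genes that rose. SKAP1, the immediate anterior neighbour and an adaptor of T cell signalling, read 7.36, 7.49 and 7.65 on the CTL arrays, 6.53, 6.32 and 6.47 on the KD3 arrays and 6.15, 6.53 and 6.39 on the KD4 arrays. It fell, by a limma log2 difference of -1.06 ± 0.12 (SE) in KD3, adjusted p = 0.000579, and -1.14 ± 0.12 (SE) in KD4, adjusted p = 0.000313. On the same side, CBX1, a heterochromatin protein gene, rose by 0.31 in KD3 (limma adjusted p = 0.0151) and 0.33 in KD4 (limma adjusted p = 0.00887), and SNX11, a sorting nexin gene, rose by 0.49 in KD4 (limma adjusted p = 0.00481), with 0.29 in KD3 (limma adjusted p = 0.0521). UBE2Z, a ubiquitin-conjugating enzyme gene beyond the posterior end, read 11.57, 11.85 and 11.36 on the CTL arrays, 12.60, 12.55 and 12.58 on the KD3 arrays and 12.65, 12.65 and 12.70 on the KD4 arrays. It rose, by a limma log2 difference of 0.98 ± 0.11 (SE) in KD3, adjusted p = 0.000625, and 1.07 ± 0.11 (SE) in KD4, adjusted p = 0.000319. Beyond HOXC4, the receptor gene GPR84 was lower in KD3 (-0.91, limma adjusted p = 0.00359), where it was well above background on 1 of 3 arrays, and not in KD4 (-0.10, limma adjusted p = 0.64).

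**Figure D5:**
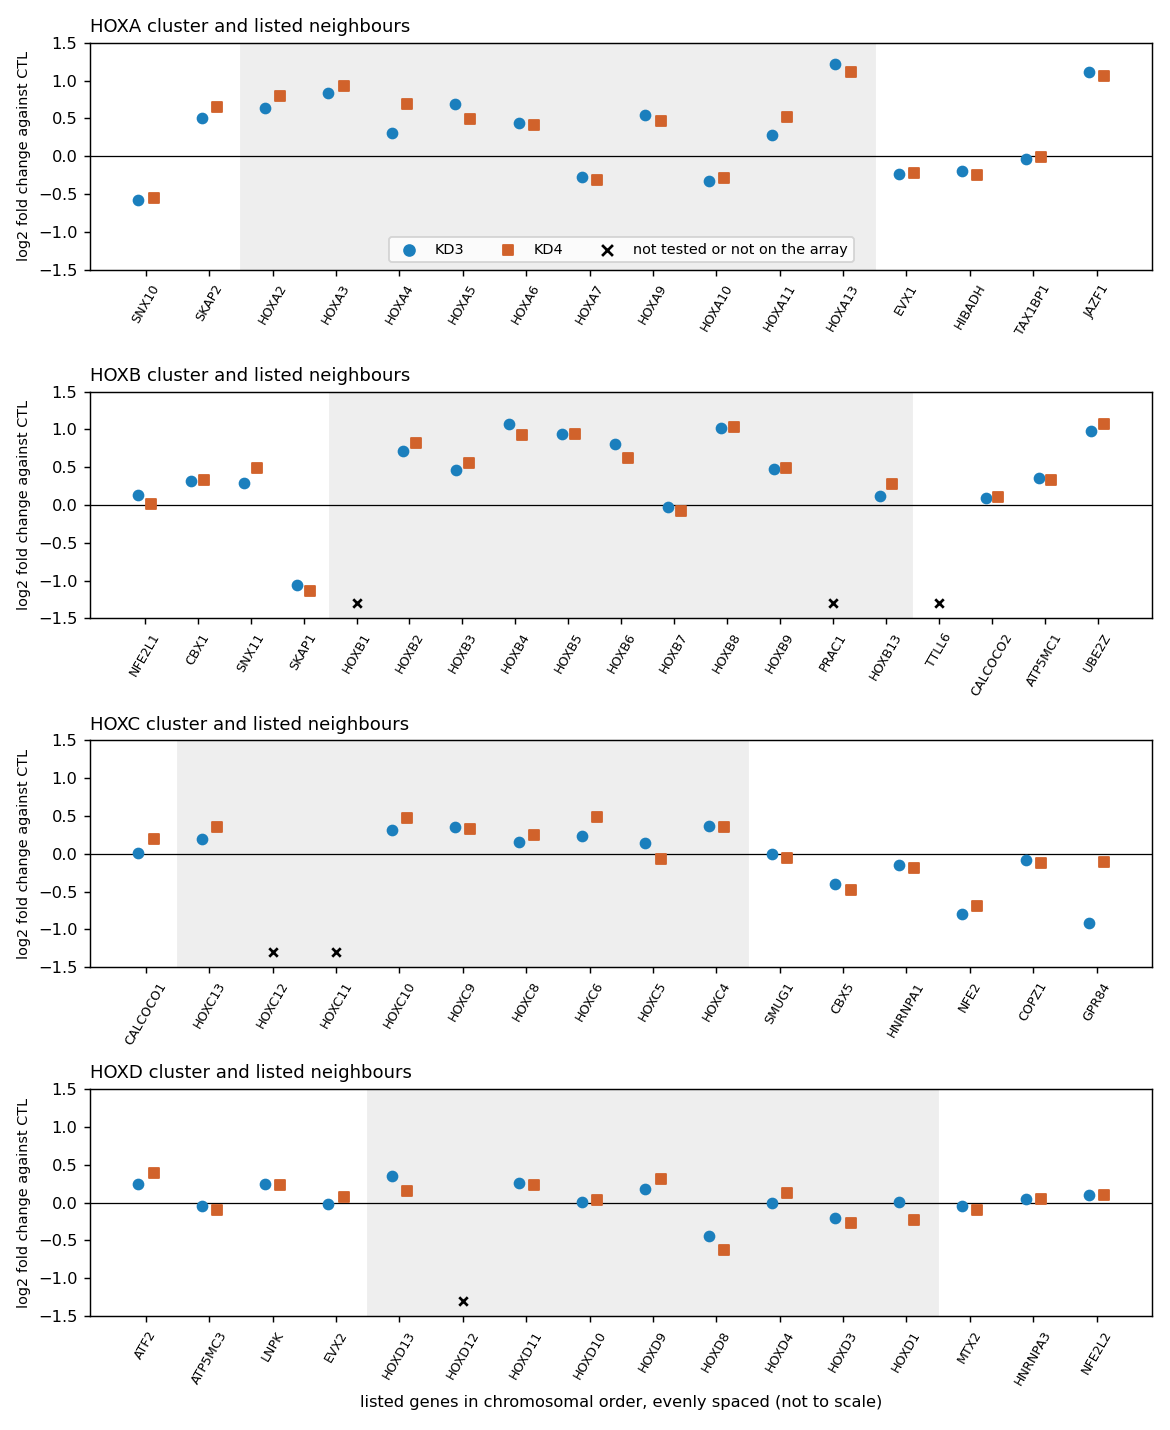
Log2 fold change against CTL of HOX genes (grey band) and listed flanking genes in chromosomal order, evenly spaced and not to scale, for KD3 (blue circles) and KD4 (orange squares); crosses mark genes not tested or not on the array. SKAP1 lies below -1 beside the HOXB cluster, and JAZF1 and UBE2Z lie near 1 beyond the posterior ends of HOXA and HOXB.

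HOX proteins bind DNA together with TALE homeodomain partners of the PBX and MEIS families. Of 10 partner genes tested, 1 (10%) was higher and 2 (20%) lower in KD3, and 2 (20%) higher and 2 (20%) lower in KD4, near the shares of all genes (10.4% and 14.8% in KD3, 14.7% and 19.8% in KD4). MEIS3 was the one past 1.8-fold. It read 6.33, 6.06 and 6.22 on the CTL arrays, 4.99, 5.70 and 4.63 on the KD3 arrays and 5.17, 5.09 and 5.04 on the KD4 arrays, and the limma log2 difference was -1.09 ± 0.23 (SE) in KD3, adjusted p = 0.0114, and -1.1 ± 0.23 (SE) in KD4, adjusted p = 0.0083. The KD3 and KD4 arrays were all below CTL, with KD3 replicate 2 the nearest. Within the slides the MEIS3 difference was -0.438 for KD3 (replicate 2 alone) and -1.074 for KD4 on the first slide. It was -1.515 and -1.152 on the second, so the KD3 size varied with the slide. Of the ParaHox and EVX relatives, 4 were tested. In KD4 1 (25%) was higher, against 14.7% of all genes, and in KD3 none was, against 10.4%.

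Of 24 known upstream regulators tested, 5 (20.8%) were higher and 5 (20.8%) lower in KD3, against 10.4% and 14.8% of all genes, and 10 (41.7%) higher and 5 (20.8%) lower in KD4, against 14.7% and 19.8%. RARB, the retinoic acid receptor gene that is itself induced by retinoic acid, read 5.98, 5.94 and 5.79 on the CTL arrays, 7.03, 6.75 and 7.05 on the KD3 arrays and 7.11, 6.94 and 6.98 on the KD4 arrays. It rose, by a limma log2 difference of 1.05 ± 0.10 (SE) in KD3, adjusted p = 0.000262, and 1.11 ± 0.10 (SE) in KD4, adjusted p = 0.000153. A part of retinoic acid in this rise was not tested. EGR2, the hindbrain factor that activates HOXA2 and HOXB2 in the embryo, read 6.38, 6.62 and 6.51 on the CTL arrays, 5.59, 5.14 and 5.21 on the KD3 arrays and 5.17, 5.17 and 4.96 on the KD4 arrays. It fell, by a limma log2 difference of -1.19 ± 0.13 (SE) in KD3, adjusted p = 0.00049, and -1.40 ± 0.13 (SE) in KD4, adjusted p = 0.000167, while HOXA2 and HOXB2 rose. BMI1, a Polycomb gene named here after its values were seen, read 10.67, 10.80 and 10.60 on the CTL arrays, 11.61, 11.43 and 11.43 on the KD3 arrays and 11.51, 11.49 and 11.44 on the KD4 arrays. Its limma log2 difference was 0.80 ± 0.08 (SE) in KD3, adjusted p = 0.000344, and 0.79 ± 0.08 (SE) in KD4, adjusted p = 0.000285.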

How the data were processed

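RNA (100 ng) was labelled with Cy3 and hybridised to 1-colour Agilent SurePrint G3 Human 8x60K arrays, and the authors deposited green processed signal intensities from Agilent Feature Extraction 10.10, with flags for outliers and for signal well above background among other columns, and a table of quantile normalized log2 values. Here the deposited intensities were converted to log2, outlier spots were removed, the 9 arrays were quantile normalized and spots were averaged per probe (R 4.3.3, limma 3.58.1). Probes well above background on all arrays of at least 1 group were tested (32276 of 42405) by limma over all 9 arrays, with 1 mean per group and Benjamini-Hochberg adjustment over all tested probes. A gene was read from its brightest probe, and a gene passed at an adjusted p under 0.05. The number of arrays limits the precision. The gene symbols came from the files and RefSeq. All 9 values are given for HOX genes past 1.8-fold and for the next 12 by adjusted p. Members and lists were chosen with earlier results of these data known. Of partner and regulator genes, PKNOX2 and EED were not analysed here, and some genes of the lists are not reported here. Steps were tested on simulated data with 100 genes changed at each size. Added log2 differences of 0.5 were recovered for 46% in KD3 and 42% in KD4, and those of 1 for 82% and 83%. Of the unchanged probes, 9 were called in KD3 and 7 in KD4. A gene that did not pass may thus still differ. The authors' unequal-variance test was run as an alternative and called the methods' test.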

Additional observations from a re-analysis of the deposited data

How the results depend on the processing

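Counts of HOX genes in limma stayed within 1.5 times under 75th percentile scaling, normexp background correction, the authors' own log2 values, no filter on dim probes, a filter on all 9 arrays, fits of only the 2 groups compared, slide as a block and any probe of a gene. They did not under the methods' unequal-variance test with Benjamini-Hochberg adjustment, which left 2 genes at any fold and 1 at 1.8-fold in KD3, and 8 and 2 in KD4. The same test without adjustment gave 8 genes between KD4 and KD3. The cause was not tested. Leaving out each array in turn gave 13 to 18 genes at any fold and 3 to 5 at 1.8-fold in KD3, 19 to 26 and 4 to 6 in KD4, and 0 to 0 between KD4 and KD3. The log2 difference of SMCHD1 ran from -1.02 to -0.91 in KD3 and from -1.56 to -1.48 in KD4 in those fits, and in KD3 it was -1.14 on the first slide alone and -0.84 on the second. With the replicate number as a block (replicate block) 17 genes differed in KD3 and 21 in KD4, with 4 and 5 at 1.8-fold. Arrays with the same number did not deviate together (correlations -0.08 to 0.14), so the numbers were not treated as pairs. No called value of the 34 tested HOX genes changed sign in KD3 or KD4 under these settings or without an array, while values that had not passed changed sign in HOXB7, HOXC5, HOXC10, HOXD1, HOXD4 and HOXD10. Under the methods' adjusted test 31 calls were lost. Without adjustment that test lost 8 calls, while 7 values that had not passed in limma passed. The 8 were HOXA6, HOXB9 and HOXD8 in KD3, and HOXA6, HOXA11, HOXB9, HOXB13 and HOXD9 in KD4. The fit of only 2 groups lost 7 calls and the replicate block 3 (HOXA7 in KD3, HOXB13 and HOXD9 in KD4). Under 75th percentile scaling 2 were lost (HOXA7 in KD3, HOXB13 in KD4). HOXB13 in KD4 was also lost without the filter and with slide as a block. HOXC10 and the genes not tested are limited by signal near background.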
